A study of Homo sapiens with 6 samples.

Results

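The amino acid transporters described here are 31 genes of the SLC1, SLC3, SLC6, SLC7, SLC36, SLC38 and SLC43 families. They were taken by gene name, using the entry on the primary chromosome, from 41497 named entries in each count table. Of the 31 genes, 26 passed the filter on low counts and were tested. Classes by substrate were assigned from the known function of each carrier. SLC43A3 was kept as listed, although it is known as a carrier of purine nucleobases.

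HK-2 is a line of human proximal tubular epithelial cells immortalised with papillomavirus genes. Wild-type HK-2 cells without treatment were compared with wild-type HK-2 cells given TGF-β1, a cytokine that drives fibrosis, and both groups were collected at 24 hours. Poly(A) RNA was sequenced in 3 control and 3 TGF-β1 libraries. The methods of the study describe serum-free medium for TGF-β treatment in general, but state neither dose nor medium for the sequenced cells separately. Whether the libraries came from separate cultures is not given in the sources used here, so p values measure only the spread between these libraries. All cells belong to 1 cell line, and no donor or tissue replicate is involved.

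Amino acids cross membranes on carriers with overlapping substrates. Sodium-coupled carriers such as those of SLC1 and SLC38 accumulate glutamine, glutamate and small neutral amino acids, and exchangers of SLC7 trade part of that pool for leucine and other essential amino acids. Several SLC7 light chains reach the cell surface only when paired with the heavy chain CD98, encoded by SLC3A2. In the proximal tubule, such carriers return filtered amino acids to the blood, and at the lysosome SLC38A9 reports arginine to the growth kinase mTORC1.

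Libraries held 21.9 to 26.9 M counts (megacounts). The treatment was visible in SMAD7, a target of TGF-β signaling, which rose 3.12-fold in mean CPM (counts scaled to the TMM-adjusted library size). TGF-β1 replicate 1 stood apart from its group. The chi-square of gene counts per degree of freedom was 17.2 and 18.5 against the other TGF-β1 libraries, compared with 4.29 between those and 4.33 to 5.98 between controls. Of 5 epithelial markers, 4 were tested and all 4 were called at an edgeR adjusted p under 0.05, beside 44.3% of all entries tested. KRT8 and KRT18 rose by 0.65 and 0.58 on the log2 scale, and KRT19 and EPCAM fell by 1.34 and 1.25. CDH1 had 6 reads in controls and 3 after TGF-β1. The summed TPM of these markers was 1532 ± 33.7 in controls and 1793 ± 82.8 after TGF-β1 (SD, n = 3). Of 12 proximal tubule markers, 5 were tested, 2 were called higher and 2 lower, beside 22.2% and 22.1% of all entries. AQP1 rose by 2.10, from 28 reads in all controls to 123 in all TGF-β1 libraries, and CUBN rose by 0.82, whereas PAX8 fell by 0.73 and GGT1 by 0.58. LRP2 and SLC22A6 had 0 reads in every library, HNF4A had 1 read in all, and ANPEP had 3 reads per group. The summed level of these 12 markers was 309 to 343 CPM in controls and 193 to 225 CPM after TGF-β1. The summed level of 12 markers of other kidney cells was 93.7 to 104 CPM in controls and 66.6 to 90.4 CPM after TGF-β1, and UMOD had 0 reads. CD68 fell from 96.7 to 71.04 CPM. PDGFRB rose from 0.551 to 5.79 CPM. The part of these marker changes in the transporter values was not tested. In bulk RNA, fewer cells of a type and less RNA per cell cannot be told apart.

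TGF-β1 changed the amino acid transporters in both directions. The edgeR quasi-likelihood test called 15 of the 26 tested members at an adjusted p under 0.05, beside 44.3% of all 14860 entries tested. Of these, 9 were higher, where the share over all entries was 22.2%, and 6 were lower, where it was 22.1%. Most changes were small. SLC38A3 and SLC38A5 were called higher at least 2-fold, beside 3.68% of all entries, and SLC43A3 was called lower at least 2-fold, beside 5.38%. In either direction the share over all entries was 9.06%. The 3 TGF-β1 values lay entirely above the 3 control values for 11 members and entirely below them for 9, beside 27.9% and 27.7% of all entries. That is 20 of 26 members, beside 55.6% of all entries in either direction. The median log2 fold change of the tested members was -0.03, and that of all entries was 0.0063. The balance of directions depended on scaling, and with total counts only 7 members were higher and 10 lower, while 31.7% of the called entries were higher in place of 50.05%. All 15 calls held without TGF-β1 replicate 1.

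Calls were then counted by family, beside shares over all entries of 22.2% higher and 22.1% lower. In SLC38, 4 of 8 tested members were called higher and 2 lower, with a median log2 fold change of 0.20. In SLC7, 2 of 5 were called higher and the other 3 were not called, with a median of 0.28, and SLC3A2, the single SLC3 member, was called higher. In SLC1, 1 of 4 was called higher and 2 lower. In SLC6, 1 of 4 was called higher and 1 lower. Of the SLC43 genes tested, 1 of 2 was called lower, and neither SLC36 gene was called. These counts are small and carry no test of a family.

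**Figure D1:**
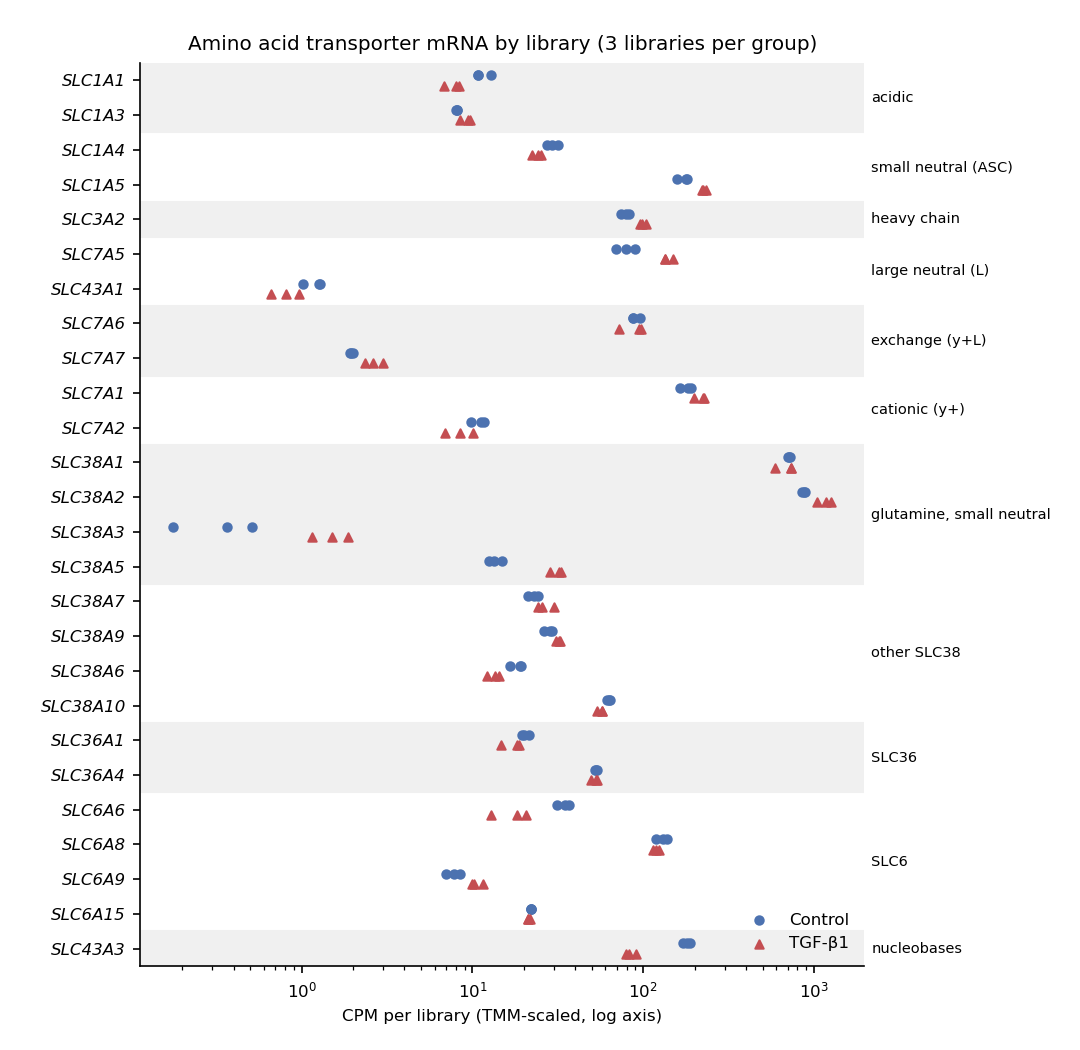
TMM-scaled CPM (log axis) of the 26 tested members in each of the 3 control (blue circles) and 3 TGF-β1 (red triangles) libraries, grouped by substrate class. SLC38A5, SLC7A5 and SLC38A2 have all TGF-β1 values above all control values, and SLC43A3 and SLC6A6 have all of them below.

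The sodium-coupled carriers of glutamine and small neutral amino acids had 4 tested members, of which 3 were called higher, beside 22.2% of all entries. SLC38A2 (gene-SLC38A2, hg38 chromosome 12, 46358188 to 46372774), also called SNAT2, takes up small neutral amino acids and is known to respond to amino acid shortage. It had 884, 848 and 878 CPM in controls and 1045, 1182 and 1259 CPM after TGF-β1. Every TGF-β1 library was above every control library. SLC38A2 rose by 0.42 ± 0.07 (SE) on the log2 scale (edgeR adjusted p 0.000672). On the per-length scale of TPM (counts divided by gene length and given as shares of a library, with no TMM scaling), SLC38A2 was the first of the 31 members in both groups. It made up 33.6% ± 1.157 (SD, n = 3) of the summed member TPM in controls and 39.8% ± 2.04 after TGF-β1. Its neighbor SLC38A1 (gene-SLC38A1, chromosome 12, 46183063 to 46269149), which encodes the related carrier SNAT1, had 719, 718 and 708 CPM in controls and 589, 730 and 738 CPM after TGF-β1. These groups overlapped, with replicate 1 the lowest library. SLC38A1 was not called, at -0.06 ± 0.08, and was at 0.026 without TGF-β1 replicate 1.

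SLC38A5 and SLC38A3, glutamine transporters of system N, rose more than any other tested member. SLC38A5 (gene-SLC38A5, chromosome X, 48458544 to 48470260) carries glutamine, histidine and serine in exchange for protons. It had 13.3, 14.9 and 12.4 CPM in controls and 32.1, 28.6 and 33.2 CPM after TGF-β1. The groups were far apart, and the log2 fold change was 1.20 ± 0.09 (SE) at an edgeR adjusted p of 9.9e-07. By mean TPM, SLC38A5 moved from position 14 to position 9 among the 31 members. SLC38A3 (gene-SLC38A3, chromosome 3, 50205268 to 50221486), a glutamine carrier used by the proximal tubule in acidosis, had 4, 9 and 12 reads in controls and 39, 45 and 24 reads after TGF-β1. All TGF-β1 libraries were higher, although the level reached only 1.502 ± 0.358 CPM (SD, n = 3). Its log2 fold change of 2.07 ± 0.34 (edgeR adjusted p 0.0006) lay between 1.77 and 2.43 in the fits without 1 library. SLC38A4, a system A carrier known from liver, did not pass the filter, with 11 reads in controls and 17 after TGF-β1. The ratio of its reads per named read was 1.42, and its 95% exact interval ran from 0.628 to 3.36. The summed TPM of the class was 839 ± 16.4 in controls and 977 ± 115 after TGF-β1. The TPM sums overlapped between groups, while the CPM sums did not, at 1581 to 1617 in controls and 1667 to 2031 after TGF-β1.

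Of the 4 tested SLC38 members of lysosomes or of little-known function, 1 was called higher and 2 lower. Over all entries these shares were 22.2% and 22.1%. SLC38A6 (gene-SLC38A6, chromosome 14, 60981122 to 61083733) had 16.7, 19.2 and 19.05 CPM in controls and 14.3, 13.6 and 12.2 CPM after TGF-β1. All TGF-β1 libraries were lower, and SLC38A6 fell by 0.45 ± 0.09 on the log2 scale (edgeR adjusted p 0.00159). Part of its exonic length, 11.1%, overlaps TRMT5 on the other strand. The calls of SLC38A9, the lysosomal arginine sensor, and of SLC38A10 stood at the threshold. SLC38A9 was called higher at 0.18 ± 0.07 (edgeR adjusted p 0.0471), and this call was lost in 9 of 15 alternative fits, with a lowest value of 0.07 under total counts only. SLC38A10 was called lower at -0.16 ± 0.06 (edgeR adjusted p 0.0431), and this call was lost in 7 of 15. SLC38A7, which exports glutamine from lysosomes, was not called at 0.22 ± 0.09 and was called in 4 of 15 alternatives. SLC38A11 had 3 reads in controls and 1 after TGF-β1.

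**Figure D2:**
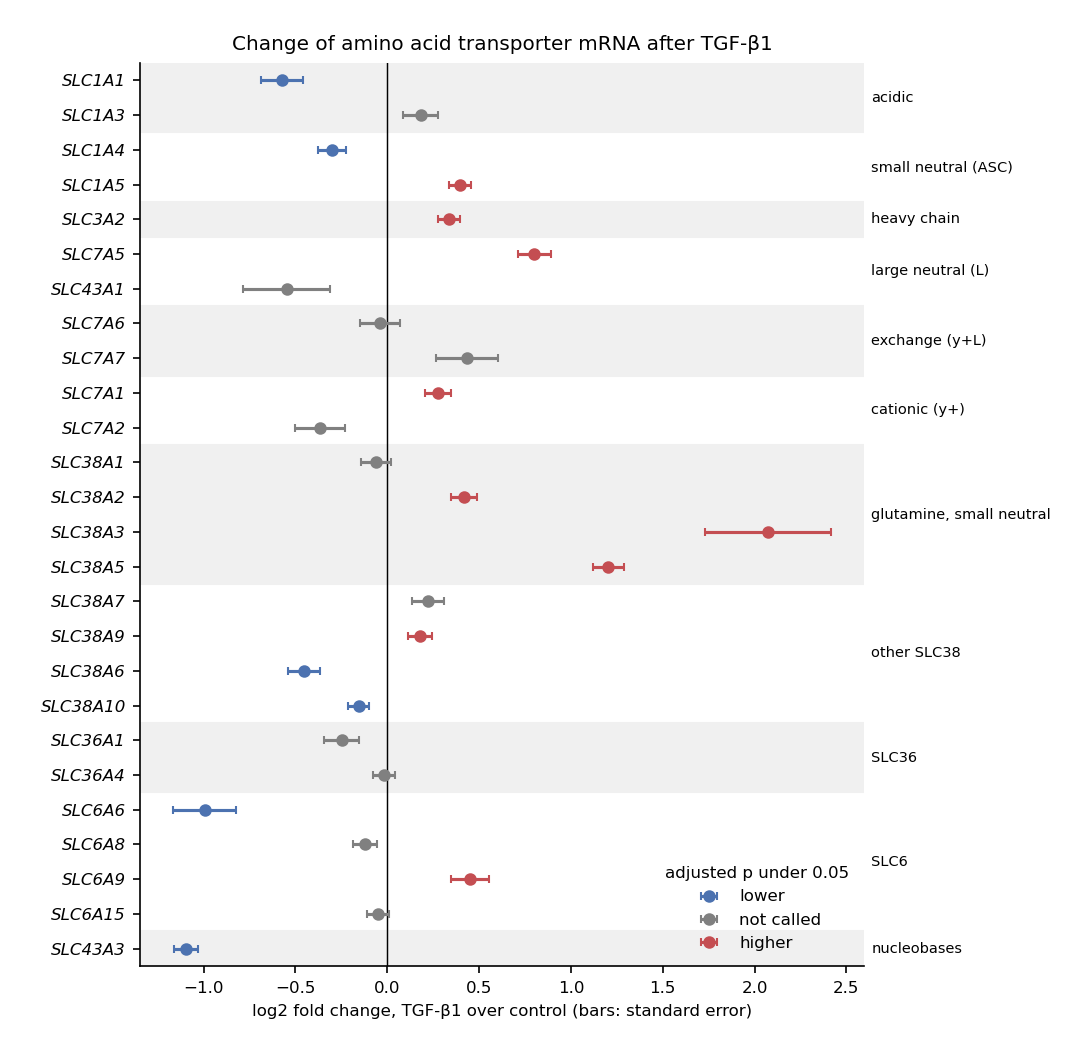
Log2 fold change (TGF-β1 over control, edgeR) of the 26 tested members with its standard error, by substrate class. Red points are the 9 members called higher, blue points the 6 called lower and gray points the 11 not called at an adjusted p of 0.05, and the values run from -1.10 for SLC43A3 to 2.07 for SLC38A3.

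The small neutral amino acid exchangers of SLC1 moved in opposite directions. SLC1A5 (gene-SLC1A5, chromosome 19, 46774883 to 46788594) encodes ASCT2, which brings in glutamine in exchange for other neutral amino acids. It had 180.5, 179 and 158 CPM in controls and 234, 225 and 221 CPM after TGF-β1. The groups did not overlap, and SLC1A5 rose by 0.40 ± 0.06 (SE) (edgeR adjusted p 0.0004). SLC1A4 (gene-SLC1A4, chromosome 2, 64988479 to 65023865) encodes the alanine, serine and cysteine exchanger ASCT1. It had 29.2, 31.8 and 27.3 CPM in controls and 24.1, 25.2 and 22.4 CPM after TGF-β1. All TGF-β1 libraries were lower, and SLC1A4 fell by 0.30 ± 0.08 (edgeR adjusted p 0.00855). Leaving out control replicate 2, this call was lost, at -0.24 (edgeR adjusted p 0.052). The summed TPM of the pair was 202 ± 11.3 in controls and 236 ± 4.11 after TGF-β1.

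Of the acidic amino acid carriers, SLC1A1 (gene-SLC1A1, chromosome 9, 4490466 to 4587469) takes up glutamate, aspartate and cysteine at the brush border of the proximal tubule. It had 12.9, 10.8 and 10.7 CPM in controls and 8.30, 8.02 and 6.78 CPM after TGF-β1. All TGF-β1 values were lower, and SLC1A1 fell by 0.57 ± 0.11 (edgeR adjusted p 0.00189). SLC1A3, known as the glutamate transporter of astrocytes, had 8.09 ± 0.0664 CPM in controls and 9.18 ± 0.617 CPM after TGF-β1 (SD, n = 3). It was not called at 0.18 ± 0.10, although all its TGF-β1 values were above those of control. SLC1A2, the glial glutamate transporter, had 13 reads in controls and 3 after TGF-β1 and was not tested. The ratio of its reads per named read was 0.212, and its 95% exact interval ran from 0.0388 to 0.772, which covers counting error only.

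CD98 and its main leucine-transporting partner rose together. SLC7A5 (gene-SLC7A5, chromosome 16, 87830022 to 87869507) encodes LAT1, the exchanger that imports leucine and other large neutral amino acids. It had 79.7, 89.5 and 69.03 CPM in controls and 149, 133 and 133 CPM after TGF-β1. The lowest TGF-β1 library was well above the highest control library, and the log2 fold change was 0.80 ± 0.09 (SE) at an edgeR adjusted p of 5.6e-05. SLC3A2 (gene-SLC3A2, chromosome 11, 62856109 to 62888860), the heavy chain, had 82.6, 79.01 and 74.02 CPM in controls and 104, 95.5 and 98.5 CPM after TGF-β1. All TGF-β1 values were higher, and SLC3A2 rose by 0.34 ± 0.06 (edgeR adjusted p 0.000983). SLC43A1, a facilitator of large neutral amino acids that needs no heavy chain, was at 1.19 ± 0.147 CPM in controls and 0.811 ± 0.149 CPM after TGF-β1. It was not called, at -0.55 ± 0.24. The other members of this class had few reads. SLC7A8, a light chain of the basolateral membrane of the proximal tubule, had 2 reads in controls and 1 after TGF-β1. SLC43A2 had 10 and 8 reads on chromosome 17, but an entry of the same name on an alternate contig had 45, 65 and 78 reads in controls and 57, 78 and 14 after TGF-β1, so its level is uncertain.

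The exchangers of cationic for neutral amino acids also pair with CD98. SLC7A6 had 96.3, 86.6 and 87.5 CPM in controls and 72.1, 93.8 and 97.2 CPM after TGF-β1. These groups overlapped, and its log2 fold change was -0.04 ± 0.11, turning to 0.011 when control replicate 1 was left out and to 0.072 when TGF-β1 replicate 1 was. Its count is uncertain, since 49.8% of its exonic length overlaps SLC7A6OS on the other strand. SLC7A7, the basolateral carrier altered in lysinuric protein intolerance, had 1.96 ± 0.0431 CPM in controls and 2.65 ± 0.318 CPM after TGF-β1. All its TGF-β1 values were higher, but it was not called at 0.44 ± 0.17 (edgeR adjusted p 0.0556) and was called in 4 of 15 alternatives.

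On the TPM scale, the summed light chains of CD98 (SLC7A5, SLC7A6, SLC7A7, SLC7A8 and, outside the 31 members, SLC7A10 and SLC7A11) were at 108, 113 and 101 in controls and 126, 140 and 140 after TGF-β1. SLC7A5 supplied 45.8% ± 2.92 (SD, n = 3) of that sum in controls and 58.5% ± 5.68 after TGF-β1. The share of SLC7A6 was 41.4% ± 3.32 in controls and 29.2% ± 3.66 after TGF-β1, and for both genes the groups did not overlap. SLC7A6 itself was not called, and its count is uncertain as given above, so these shares are uncertain too. The share of SLC7A11, the cystine and glutamate exchanger, overlapped between groups at 10.1% ± 0.79 and 9.71% ± 1.83. The ratio of SLC3A2 to the summed light chains also overlapped, at 0.886 ± 0.037 in controls and 0.816 ± 0.0598 after TGF-β1. The ratio of SLC3A2 to SLC7A5 alone was 1.94 ± 0.195 in controls and 1.40 ± 0.0389 after TGF-β1.

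**Figure D3:**
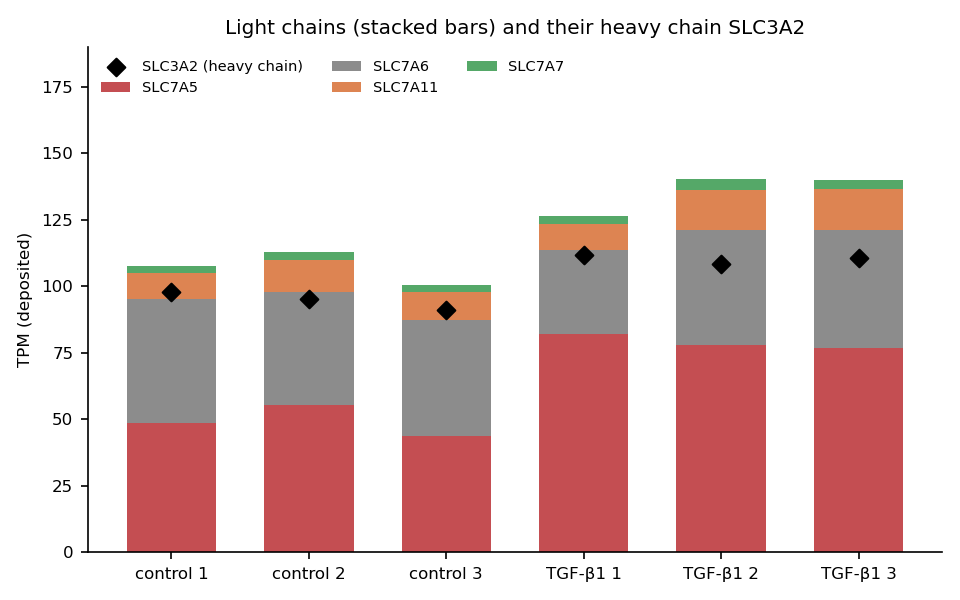
Deposited TPM of the light chains SLC7A5, SLC7A6, SLC7A11 and SLC7A7 (stacked bars) and of the heavy chain SLC3A2 (diamonds) in each library. The SLC7A5 segment is taller in all 3 TGF-β1 libraries than in any control library, and SLC7A6 is shortest in TGF-β1 replicate 1.

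Of the carriers for arginine and lysine, SLC7A1 (gene-SLC7A1, chromosome 13, 29509410 to 29595688) is the widely expressed CAT1. It had 189.9, 183 and 164 CPM in controls and 197, 228 and 225 CPM after TGF-β1. All TGF-β1 libraries were higher, with replicate 1 the lowest of them, and SLC7A1 rose by 0.28 ± 0.07 (edgeR adjusted p 0.00997). This call was lost under total counts only, at 0.17, and without control replicate 3, at 0.22. SLC7A2, the inducible carrier CAT2, had 11.7, 9.77 and 11.3 CPM in controls and 6.91, 10.1 and 8.40 CPM after TGF-β1. The groups overlapped by 1 library each, and its log2 fold change of -0.36 ± 0.14 had an edgeR adjusted p of 0.0502. It was called lower in 8 of 15 alternatives.

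The sodium- and chloride-coupled SLC6 members moved in both directions. SLC6A6 (gene-SLC6A6, chromosome 3, 14402576 to 14489349) carries taurine, an osmolyte of kidney cells. It had 36.6, 31.2 and 34.6 CPM in controls and 12.8, 18.1 and 20.7 CPM after TGF-β1. The groups were clearly separated, and SLC6A6 fell by 0.99 ± 0.17 (SE) (edgeR adjusted p 0.00351). Its count is uncertain, since 57.8% of its exonic length overlaps GRIP2 on the other strand and the strand setting is not given. GRIP2 had 18 to 32 reads per library. SLC6A9 (gene-SLC6A9, chromosome 1, 43996483 to 44031462), which carries glycine, had 7.80, 8.42 and 7.03 CPM in controls and 11.5, 9.97 and 10.3 CPM after TGF-β1. Of its exonic length, 1.18% overlaps CCDC24. All TGF-β1 values were higher, and SLC6A9 rose by 0.45 ± 0.11 (edgeR adjusted p 0.00522). SLC6A8, the creatine carrier, had 129 ± 9.42 CPM in controls and 119 ± 5.25 CPM after TGF-β1. It was not called at -0.12 ± 0.06, but was called lower at -0.23 under total counts only and at -0.17 without TGF-β1 replicate 1. SLC6A15, a carrier of branched-chain amino acids and proline, was at 22.04 ± 0.105 and 21.3 ± 0.324 CPM and was not called, at -0.05 ± 0.06. The summed TPM of these 4 members was 138 ± 6.03 in controls and 114 ± 2.02 after TGF-β1, with no overlap.

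The SLC36 carriers, which act partly at lysosomes, were not called. SLC36A1 had 20.4 ± 1.06 CPM in controls and 17.2 ± 2.23 CPM after TGF-β1, with all TGF-β1 values lower. Its log2 fold change was -0.25 ± 0.10 (edgeR adjusted p 0.057), and it was called lower in 6 of 15 alternatives. SLC36A4 had 52.8 ± 0.992 and 52.2 ± 2.46 CPM, and its log2 fold change was -0.02 ± 0.06.

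The largest fall among the tested members was that of SLC43A3 (gene-SLC43A3, chromosome 11, 57406954 to 57427580), the nucleobase carrier. It had 188, 182 and 171 CPM in controls and 91.1, 79.0 and 82.6 CPM after TGF-β1. All TGF-β1 libraries were below all controls, and SLC43A3 fell by 1.10 ± 0.07 (SE) (edgeR adjusted p 2.3e-07). By mean TPM it moved from position 3 to position 7 among the members. The summed TPM of all 31 members was 1799.9 ± 19.6 in controls and 1865 ± 126 after TGF-β1, and the sums overlapped. On the TMM-scaled CPM scale the sums did not overlap, at 2772 to 2911 in controls and 2933 to 3305 after TGF-β1.

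Pairs of carriers of the same family, not all with related substrates, were then set against each other within each library, where scaling has no effect. The TPM ratio of SLC1A5 to SLC1A4 was 8.74 ± 0.433 (SD, n = 3) in controls and 14.1 ± 0.761 after TGF-β1. That of SLC38A2 to SLC38A1 was 2.80 ± 0.0709 in controls and 3.91 ± 0.178 after TGF-β1. In both pairs the member higher in controls gained further on its partner. The ratio of SLC7A5 to SLC7A6 was 1.12 ± 0.166 in controls and 2.04 ± 0.484 after TGF-β1, with replicate 1 the highest at 2.60. The ratio of SLC7A1 to SLC7A2 was 18.0 ± 2.29 in controls and 28.2 ± 3.33 after TGF-β1. SLC1A1 was the more abundant acidic carrier in controls and SLC1A3 after TGF-β1, since the ratio of SLC1A3 to SLC1A1 was 0.709 ± 0.0699 and 1.20 ± 0.193. The ratio of SLC6A8 to SLC6A6 was 6.92 ± 0.703 in controls and 13.2 ± 4.004 after TGF-β1. The counts of SLC7A6 and SLC6A6 are uncertain as given above, and so are the ratios that use them. For these 6 ratios and that of SLC3A2 to SLC7A5, no value overlapped between groups. The pairs and their order were not fixed before results were known, so this separation restates the changes of single members. Each of the 7 had a two-sided exact permutation p of 0.1, the smallest that 3 libraries against 3 can give, so none passed the threshold.

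**Figure D4:**
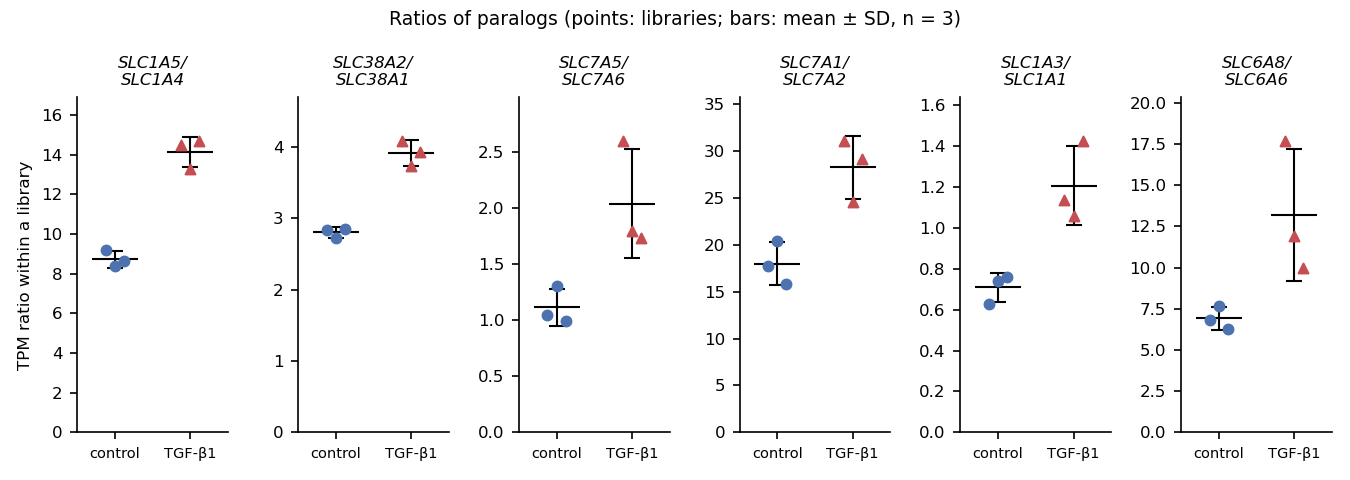
Ratios of deposited TPM within a library for 6 pairs of carriers, with 3 control (blue circles) and 3 TGF-β1 (red triangles) libraries and the mean ± SD, each on its own axis from 0. In all 6 pairs the TGF-β1 values lie above the control values.

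Promoters were searched for TGATGNAA, the core of the element through which ATF4 and C/EBP factors act in amino acid shortage, on both strands (TTNCATCA on the other). Windows from 250 bases before to 50 bases after each RefSeq start of GRCh38.p14 were used, and 25 of the 31 members had 46 of them. The motif was in 6 member windows, or 13.04%, and in 3.62% of all 35116 windows. By gene, 24.0% of the matched members and 4.46% of all 27305 genes held it. A gene with several windows has more chances of a match, and the share by gene was not corrected for this. Only SLC7A1 had the match in its single window. SLC1A5, SLC3A2, SLC38A1, SLC1A3 and SLC1A4 also had windows at other starts without a match. The matches follow on the strand of the gene with the motif in capitals, because they fall in members that rose, fell and were not called.
SLC1A5, called higher (minus strand, chr19:46784893-46784922): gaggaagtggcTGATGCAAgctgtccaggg
SLC3A2, called higher (plus strand, chr11:62881719-62881748): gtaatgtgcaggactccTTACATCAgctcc
SLC7A1, called higher (minus strand, chr13:29595663-29595692): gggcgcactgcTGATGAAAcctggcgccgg
SLC38A1, not called (minus strand, chr12:46266502-46266531): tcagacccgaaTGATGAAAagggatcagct
SLC1A3, not called (plus strand, chr5:36596357-36596386): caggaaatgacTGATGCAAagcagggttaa
SLC1A4, called lower (plus strand, chr2:64989381-64989410): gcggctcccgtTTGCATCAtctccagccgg
A match is a description of these letters and not of binding. The windows of SLC38A2, SLC38A5, SLC38A9, SLC7A5 and SLC6A9, which were called higher, held no match. Sequence further than 50 bases past a start, including introns, was not searched. An element outside the windows would therefore not be found, and these genes cannot be said to lack one. SLC38A3, SLC43A3, SLC6A6, SLC1A2, SLC6A15 and SLC7A2 had no window.

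Most other plasma membrane carriers of amino acids had few or no reads. Of 21 further plasma membrane transporters, 11 had 0 reads in every library and 4 were tested. SLC6A20, which carries proline in the kidney and gut, had 50, 54 and 43 reads in controls and 11, 8 and 11 reads after TGF-β1. It was the one called, and the log2 fold change was -2.29 ± 0.24 (SE) at an edgeR adjusted p of 2.0e-05. SLC7A11 had 31.8 ± 3.42 CPM in controls and 42.2 ± 9.14 CPM after TGF-β1 and was not called, at 0.41 ± 0.18. SLC3A1, the heavy chain of the brush-border cystine carrier, had 17 reads in controls and 18 after TGF-β1, and SLC6A19, the main neutral amino acid carrier of the brush border, had 0. All 10 transporters of organelle membranes were tested, with 4 called higher and 2 called lower, or 40% and 20%, beside 22.2% and 22.1% of all entries. Among them, and named after their values were seen, SLC25A22, a mitochondrial glutamate carrier, was at 0.49 and SLC25A29, a mitochondrial carrier of basic amino acids, at -0.51.

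Of 26 genes known to respond to amino acid shortage, 23 were tested, 6 were called higher and 6 lower, with a median log2 fold change of 0.057. That is 26.1% in each direction, near the 22.2% and 22.1% of all entries. ATF4, the transcription factor of this response, had 296 ± 17.4 CPM in controls and 308 ± 18.4 CPM after TGF-β1 and was not called, at 0.06 ± 0.06. Its targets DDIT3 at 0.07, TRIB3 at -0.18 and CHAC1 at -0.17 were not called either. All TGF-β1 values of TRIB3 were below those of control (edgeR adjusted p 0.0602). ASNS, which makes asparagine, had 20 reads in controls and 19 after TGF-β1, but 69.5% of its exonic length overlaps the readthrough gene CZ1P-ASNS, so its level is uncertain. SESN2 had 0 reads on chromosome 1, and 31 to 157 reads per TGF-β1 library and 15 to 66 per control library fell on a copy on an alternate contig. The rises and falls named next were chosen after their values were seen. CEBPB was at 0.67 and EIF4EBP1 at 0.58, whereas ATF3 was at -0.91, STC2 at -0.56 and PSPH at -0.48.

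Cytosolic aminoacyl-tRNA synthetases load the imported amino acids onto tRNA. All 20 were tested, and 11 were called higher and 1 lower, or 55% and 5%, beside 22.2% and 22.1% of all entries. The median log2 fold change was 0.21. Chosen after their values were seen, WARS1 rose by 0.47, RARS1 by 0.40 and TARS1 by 0.39. VARS1 had its highest value in a single TGF-β1 library and has entries on alternate contigs, so its value of 1.62, which was not called, is uncertain.

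Of 37 genes of amino acid sensing at mTORC1, 36 were tested, 5 were called higher and 11 lower, with a median of -0.07. That is 13.9% higher and 30.6% lower, beside 22.2% and 22.1% of all entries. In either direction 44.4% were called, near the 44.3% of all entries. CASTOR1 (gene-CASTOR1, chromosome 22, 30285117 to 30289505), a cytosolic arginine sensor, had 2.04, 2.74 and 2.05 CPM in controls and 6.76, 5.58 and 6.30 CPM after TGF-β1. All TGF-β1 libraries were higher, and CASTOR1 rose by 1.45 ± 0.16 (SE) (edgeR adjusted p 3.3e-05). MTOR was not called, at 0.17 ± 0.07. Among genes named after their values were seen, the Rag GTPases RRAGC and RRAGD fell by 0.43 and 0.57, and FLCN and LAMTOR1, which act with them at the lysosome, fell by 0.38 and 0.39.

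Of 30 genes that use the transported amino acids, 21 were tested, 7 were called higher and 5 lower, with a median of 0.028. These are 33.3% and 23.8%, beside 22.2% and 22.1% of all entries. The summed TPM of the list was nevertheless lower, at 2578 ± 3.55 in controls and 2128 ± 33.9 after TGF-β1 (SD, n = 3), with no overlap. GLUL, which makes glutamine, was not called at 0.09 ± 0.07. GATM, the first step of creatine synthesis, rose by 0.33 and ODC1, the first step from ornithine to polyamines, rose by 0.24. Chosen after their values were seen, ASL of arginine synthesis was at 0.62, whereas CKB, a creatine kinase, was at -0.97 and GAMT, the second step of creatine synthesis, was at -0.59.

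**Figure D5:**
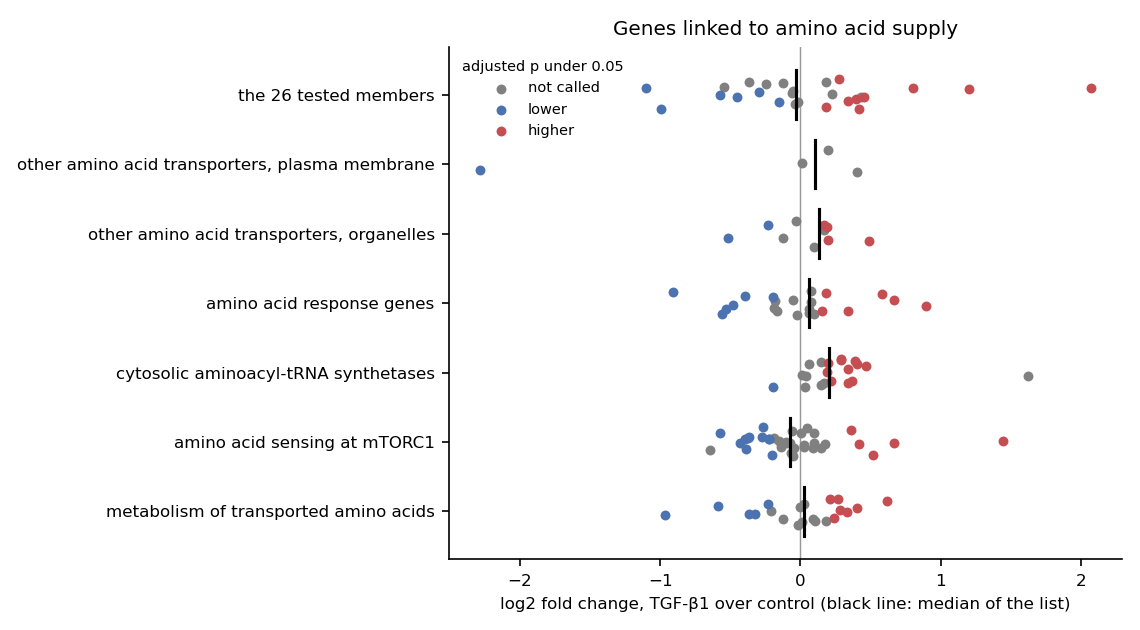
Log2 fold change (TGF-β1 over control, edgeR) of each tested gene of the members and of 6 related gene lists, with red for called higher, blue for called lower and gray for not called at an adjusted p of 0.05, and a black line at each median. The list medians run from -0.07 for amino acid sensing to 0.21 for the aminoacyl-tRNA synthetases, of which 11 of 20 are red.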

How the data were processed

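Gene-level counts of 3 control and 3 TGF-β1 HK-2 libraries were analysed as deposited by the authors, who also deposited TPM and FPKM (FPKM was not used). The submitters' processing notes name CASAVA, featureCounts 2.0.1, DESeq2 1.16.1 and hg38, without roles; the aligner and strand setting are not given in the sources used here. Per library, 7 broken records were rejoined, and 598 unnamed loci (0.396% to 0.464% of counts) were left out.

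Counts were filtered with filterByExpr (minimum count 10), scaled with TMM and compared with the quasi-likelihood F test of edgeR 4.0.16 in R 4.3.3, which is two-sided, with Benjamini-Hochberg adjustment over 14860 entries. SE is the log2 fold change divided by the square root of F. Genes under the filter are given as reads with 95% exact binomial intervals, which cover counting error only. DESeq2 1.42.0, limma 3.58.1 (voom), RLE factors, total counts only, both count filters, both treatments of repeated names, a replicate block and 6 fits without 1 library served as 15 alternatives. The edgeR script was tested on simulated data.

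The members and gene lists were chosen with earlier results of these data known. Named genes were all members, list and marker genes called at least 2-fold, a fixed set of 13 further genes of these lists, genes overlapping members and treatment checks; others are said to be chosen after their values were seen, except cell type markers, which are named as checks of the label. Some genes of the lists are not reported here. Levels of different genes were compared only by TPM.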

Additional observations from a re-analysis of the deposited data

How the results depend on the processing

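Of the 9 members called higher, 7 kept direction and call in every alternative fitted, as did 4 of the 6 called lower. SLC38A9 and SLC7A1 of the former and SLC38A10 and SLC1A4 of the latter lost the call in some. Of the 11 members not called, only 2 kept that status and their direction in every alternative fitted. Scaling mattered most. With total counts only, 7 members were higher and 10 lower, 2134 entries were higher and 4590 lower, the share of higher among called entries was 31.7% instead of 50.05%, and the median of all entries shifted by -0.11. No member changed sign under it. Leaving out 1 library gave 8 to 10 members higher and 5 to 7 lower, and 2646 to 3545 entries higher and 2687 to 3651 lower. The log2 fold changes that changed sign were not called in any of these fits. They ranged from -0.12 to 0.072 for SLC7A6, from -0.12 to 0.026 for SLC38A1 and from -0.046 to 0.0089 for SLC36A4. The cause of these shifts was not tested.

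The main fit did not pair the libraries by replicate number. Deviations from the group means of same-numbered libraries correlated at 0.11, -0.012 and 0.076 across genes, and the labels name no shared batch. Those of differently numbered libraries ran from -0.15 to 0.088. These values cannot decide whether the libraries were paired. With a replicate block, 9 members were higher and 7 lower. SLC38A3 and SLC43A1 could not be fitted with a mean of at least 50 counts. Members with few reads are limited by depth, and a change of SLC7A8, SLC38A11 or SLC38A4 was not detectable here.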
